A study of Mus musculus with 12 samples.

Results

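The genes described here are the receptors and ligands of platelet-derived growth factor (PDGF) and of stem cell factor: Pdgfra and Pdgfrb, the PDGF receptors α and β, Pdgfa, Pdgfb, Pdgfc and Pdgfd, the 4 PDGF chains, Kit, the stem cell factor receptor, and Kitl, its ligand. They are 8 of the 19938 mouse genes that had a probe set annotated with a single gene symbol, and each was read from the probe set of that symbol with the highest mean over all 12 arrays; each of the 8 had only 1 such probe set. Total RNA was measured on 1-colour Affymetrix gene arrays, and values are log2 RMA signals, in which 1 unit is a 2-fold difference in signal. The sorted CPC group held cells at day 4 that flow cytometry had enriched for cardiac progenitor cells (CPC) carrying both FLK1, the product of Kdr, and PDGFRα, the product of Pdgfra, on their surface. The cardiac group held unsorted cells at day 4 of an optimised cardiac differentiation, the spontaneous group held cells at day 4 of differentiation without that direction, and the control was undifferentiated mouse induced pluripotent stem cells (iPSC) at day 0. Each of the 4 groups had 3 arrays. The labels give no strain, reprogramming method or number of lines and do not say whether the arrays of a group stem from separate cultures, and p-values below therefore measure only the spread between these samples.

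PDGF chains form dimers that bind PDGF receptors, which are tyrosine kinases. The A and C chains act mainly through PDGFRα, while the B and D chains act mainly through PDGFRβ. In the mouse embryo Pdgfra marks paraxial and cardiac mesoderm and primitive endoderm, and together with Kdr it is used to isolate early cardiac mesoderm from differentiating stem cells. Pdgfrb is known from pericytes and smooth muscle cells. KIT is a receptor of the same family, known from blood stem cells, mast cells, germ cells and melanocytes, and it is also present on pluripotent mouse cells.

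Pdgfra, Kit and Kdr lie next to each other on chromosome 5 in this order: in the RefSeq gene table of GRCm38.p6, 6 genes lie between Pdgfra and Kdr, and Kit is the 1 protein-coding gene among them. The promoter windows of the pair of members that varied most between groups are printed here because the results below turn on these genes. Both are RefSeq sequences of GRCm38.p6, plus strand, from 250 bases before to 50 bases after the annotated start. Such windows were used here for 6 of the 8 genes, and Pdgfb and Pdgfrb were not among these. The Pdgfra window is chr5:75152001-75152300 and the first of the overlapping Kit windows is chr5:75574737-75575036. Capitals mark the matches to 4 motifs searched on both strands: the core that GATA factors read (GATAA), the core that T-box factors read (AGGTGT), the GC box (GGGCGG) and the TATA box (TATAAA).
Pdgfra: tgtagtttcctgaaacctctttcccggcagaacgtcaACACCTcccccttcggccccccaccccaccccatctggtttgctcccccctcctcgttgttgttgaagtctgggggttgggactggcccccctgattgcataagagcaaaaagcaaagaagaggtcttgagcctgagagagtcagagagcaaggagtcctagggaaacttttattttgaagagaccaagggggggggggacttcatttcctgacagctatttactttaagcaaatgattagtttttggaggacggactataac
Kit: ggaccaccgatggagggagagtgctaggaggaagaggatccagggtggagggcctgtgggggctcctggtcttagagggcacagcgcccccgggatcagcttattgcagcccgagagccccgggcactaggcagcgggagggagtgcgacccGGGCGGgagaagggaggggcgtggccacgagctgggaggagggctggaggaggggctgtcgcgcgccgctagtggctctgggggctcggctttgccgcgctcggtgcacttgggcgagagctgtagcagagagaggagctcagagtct

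The Pdgfra window had 1 match to the T-box core, on the minus strand with its first base at -213 from the start, and none to the other motifs. The Kit window had 1 match to the GC box, at -98 from the start, and none to the other motifs. Of 32851 mouse promoter windows of the same length, 13.7% held the T-box core, 35.7% the GC box, 25.4% the GATA core and 13.6% the TATA box. G and C made up 51.0% of the Pdgfra window and 69.0% of the Kit window, against a median of 52.7% over all windows. A match describes the letters of the window and is no evidence of binding.

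Pdgfra and Kdr were the sorting genes, so their levels check the labels of the sorted group and are no finding about it, and the arrays measured RNA and not the surface protein on which cells were sorted. On sorted CPC replicate 1 both were high, with Pdgfra at 11.13 and Kdr at 10.23. The library labelled sorted CPC replicate 2 had 8.47 for Pdgfra and 6.25 for Kdr, while 8.29 and 6.03 were the values of these genes in the library labelled sorted CPC replicate 3. In both libraries Pdgfra lay below all day 0 arrays and Kdr only a little above them (5.50 to 5.78 at day 0). Differences of the sorted group from day 0 are therefore given with and without these libraries for Pdgfra, Pdgfrb, Pdgfa, Kit and Kitl. Other results of the sorted group include them unless stated. Without them the group is a single array that is assumed to vary like the other groups. Since they were picked on Pdgfra and Kdr, values without them are a description for all of these genes and not only for Pdgfra. Pdgfrb lay on the same side of its own mean as Pdgfra on 10 of 12 arrays and Kit on 3 of 12. Leaving out these libraries can therefore shift such genes by the choice itself. The lowest correlation between arrays of a group was 0.966 in the sorted, 0.973 in the cardiac, 0.992 in the spontaneous and 0.989 in the iPSC group, and array medians over genes ran from 6.54 to 6.63. The 10 pluripotency markers averaged 6.77 to 8.49 on the day 4 arrays, against 9.66 to 9.97 at day 0, and 7, 7 and 8 of them were called lower in the sorted, cardiac and spontaneous groups.

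Pdgfra, the receptor for the A and C chains, was higher on 7 of the 9 day 4 arrays than on any day 0 array and lower on the 2 low sorted libraries. The sorted CPC arrays had 11.13, 8.47 and 8.29, the cardiac arrays 9.42, 10.26 and 9.60, and the spontaneous arrays 10.35, 10.00 and 9.71, against 8.75, 9.14 and 8.81 on the iPSC arrays. The cardiac and spontaneous groups did not overlap day 0, while the sorted group held the highest and the lowest arrays of the whole set. The SD of Pdgfra among sorted arrays, 1.59, was larger than that of 99.8% of genes, and this spread entered the error of every comparison, because all groups shared 1 estimate.

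**Figure D1:**
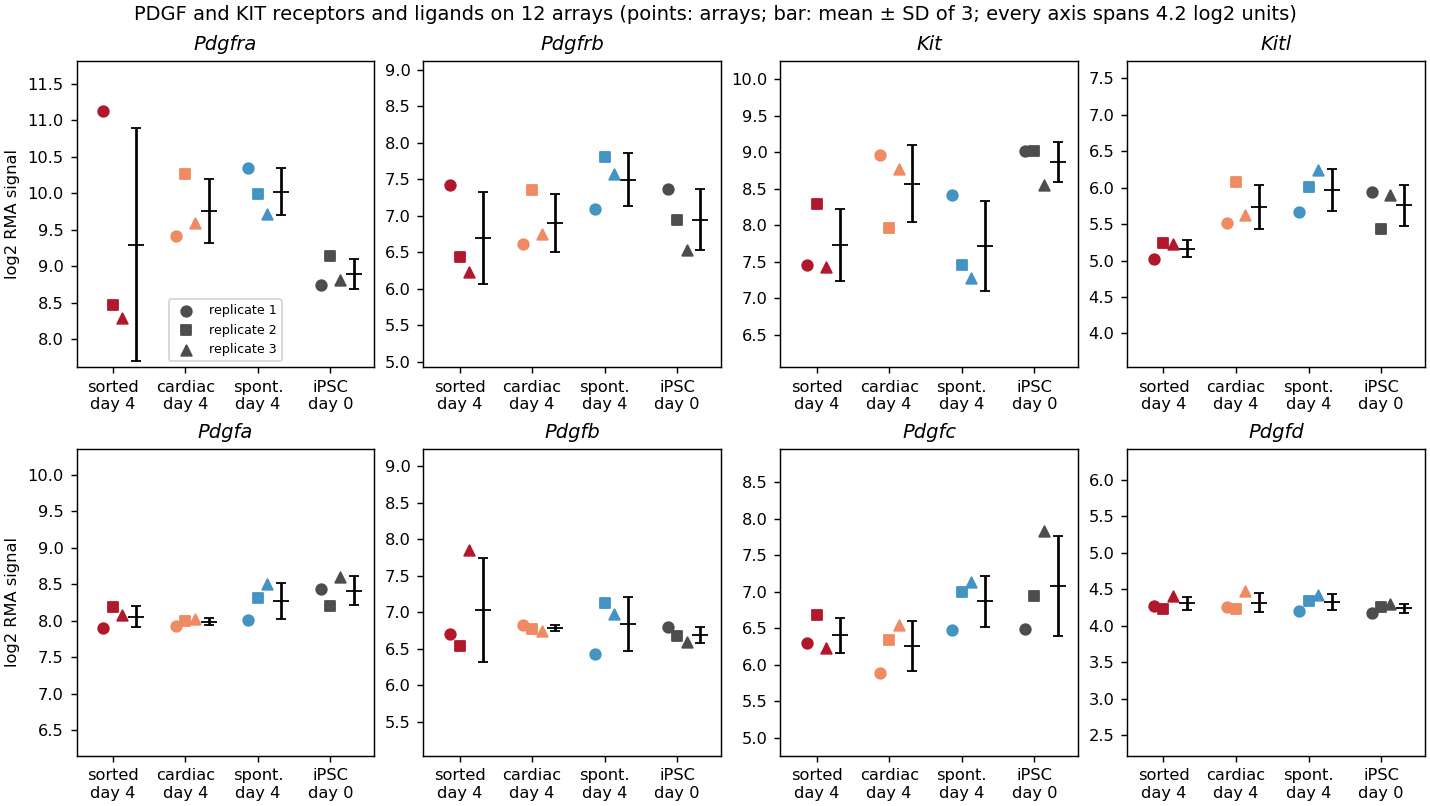
Log2 RMA signal (vertical axes, each 4.2 units tall) of the 8 genes in the sorted CPC, cardiac, spontaneous and iPSC groups; points are arrays, with a marker for each replicate number, and black bars are the mean ± SD of 3 arrays. Pdgfra is spread from 8.29 to 11.13 within the sorted group, Kit is highest at day 0, and Pdgfd is flat.

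Groups were compared in 1 limma model of all 12 arrays, with p-values adjusted over 19938 genes by the Benjamini-Hochberg method, and calls needed both an adjusted p below 0.05 and a log2 difference of 1 or more in either direction. By this rule 2.11% of genes were called in sorted CPC minus iPSC, 2.2% in cardiac minus iPSC and 3.57% in spontaneous minus iPSC. Among the 8 genes the counts were 0, 0 and 1. Pdgfra was 1.12 ± 0.55 higher (SE, log2) in the spontaneous group than at day 0, a 2.18-fold difference that did not pass (adjusted p = 0.239). In the cardiac group the difference was 0.86 (adjusted p = 0.370) and in the sorted group it was 0.40 (adjusted p = 0.766), with the same SE. Means were 9.30 ± 1.59 in sorted CPC, 9.76 ± 0.44 in cardiac and 10.02 ± 0.32 in spontaneous cells, against 8.90 ± 0.21 in iPSC (SD, n = 3 each), and groups next to each other in level did not differ by the test. Bulk RNA does not tell a change in the share of Pdgfra-expressing cells from a change in RNA per cell.

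Pdgfra was called in no comparison of the main model, but whether its spontaneous difference passed depended on the arrays and weights used. Without sorted CPC replicate 1 the spontaneous difference of 1.12 passed (adjusted p = 0.00646). It also passed in a fit of the 6 spontaneous and iPSC arrays alone (adjusted p = 0.00243). With array weights the difference was 1.01, just over the minimum, and passed (adjusted p = 0.0393). With both low libraries left out, the spontaneous difference stayed 1.12 and the cardiac difference 0.86, the latter under the minimum. Sorted CPC replicate 1 lay 2.23 above day 0. These values are a description, because the libraries left out were picked on Pdgfra and Kdr and 1 sorted array remains. Without sorted CPC replicate 1, in contrast, the sorted difference was -0.52 (adjusted p = 0.346).

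Pdgfra and Kdr lay on the same side of their own 12-array means on 12 of 12 arrays. They parted on cardiac replicate 1, where Pdgfra was 9.42, above all day 0 arrays, and Kdr was 5.42, below them. That array also had the highest mean of the 10 primitive and visceral endoderm markers, 9.52, against 8.30 and 8.68 on the other cardiac arrays, 7.37 to 8.03 on sorted, 7.48 to 8.44 on spontaneous and 7.11 to 7.41 on iPSC arrays; Ttr, Apob and Dab2 varied most among these markers, and 0 of the 10 lay below the array median on all arrays. The mean of the 11 measured primitive streak and paraxial mesoderm markers was 8.45 on sorted CPC replicate 1, where Pdgfra was highest, and 7.29 and 6.70 on the low sorted libraries. It was 6.64, 7.87 and 7.48 on the cardiac arrays and 7.69, 7.48 and 7.39 on the spontaneous arrays, against 6.42 to 6.54 on iPSC arrays. Meox1 and Foxc2 lay below the array median throughout. Mixl1, Eomes and Lhx1 varied most among these markers and had 12.11, 11.50 and 10.68 on sorted CPC replicate 1. The low sorted libraries, replicates 2 and 3, had 10.35 and 7.52 for Mixl1, 10.34 and 8.60 for Eomes and 8.37 and 6.65 for Lhx1. Mixl1 was also high on the spontaneous arrays (10.84, 11.13 and 11.33) and had 6.22, 11.42 and 10.48 on the cardiac arrays. Day 0 means of the 3 genes were 5.98, 6.45 and 6.14. Tcf15, in contrast, was called lower than day 0 in the sorted and cardiac groups (-1.23 and -1.27). Differences there were 0.07 and -0.15 for Msgn1, -0.04 and -0.17 for Meox1 and 0.44 and 0.37 for Tbx6, none called. In the spontaneous group 2 of the 11 markers were called higher than day 0 and 1 lower. Differences in that group were 0.27 for Msgn1, 0.24 for Tbx6 and -0.96 for Dll1, none called. The 10 lateral plate and cardiac mesoderm markers averaged 6.96, 6.21 and 6.62 on the sorted, 6.57, 7.23 and 6.84 on the cardiac and 7.05, 7.59 and 7.42 on the spontaneous arrays, against 6.32 to 6.34 on iPSC arrays, and Tbx5, Mef2c and Myocd among them lay below the array median throughout. The part of these cell types in the Pdgfra levels was not tested.

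**Figure D2:**
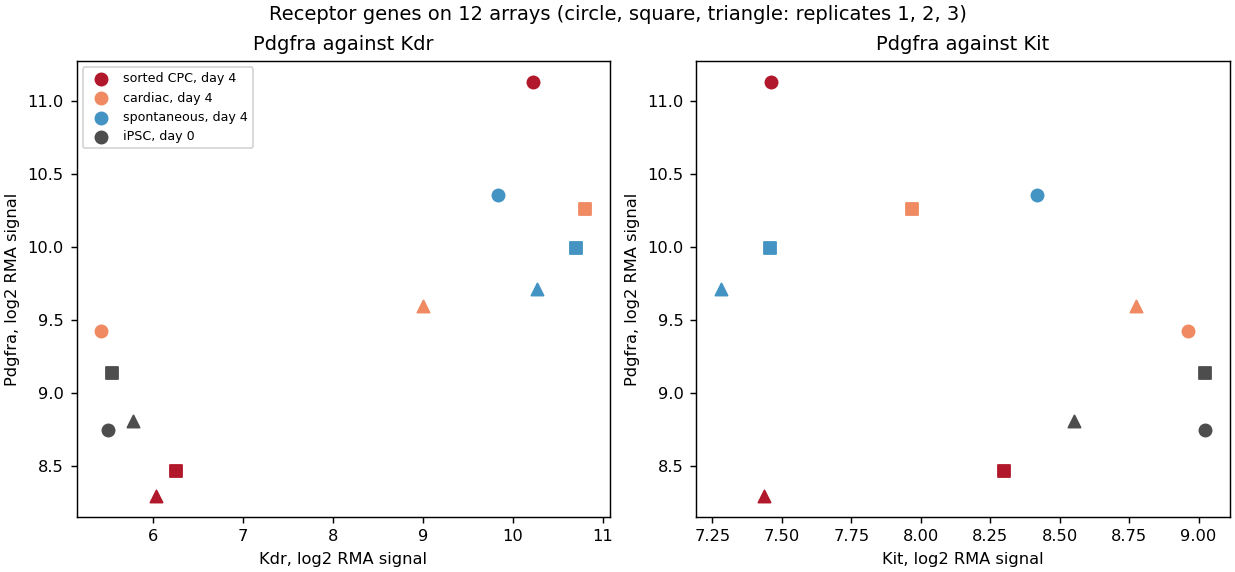
Pdgfra (vertical axes, log2 RMA signal) against Kdr (left) and Kit (right) on the 12 arrays; colour gives the group and the marker the replicate. The arrays at low Kdr are the 3 iPSC arrays, the low sorted libraries and cardiac replicate 1, and the low sorted libraries have the lowest Pdgfra values (8.47 and 8.29).

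Pdgfrb, the receptor for the B and D chains, was called in no comparison. It had 7.42, 6.44 and 6.23 in the sorted CPC group, 6.61, 7.36 and 6.75 in the cardiac group and 7.10, 7.81 and 7.58 in the spontaneous group, against 6.95 ± 0.42 (SD, n = 3) at day 0, where the arrays had 7.37, 6.95 and 6.53. The spontaneous group had the highest mean, and every day 4 group overlapped day 0. The differences from day 0 were -0.25, -0.04 and 0.55 in the sorted, cardiac and spontaneous groups, with adjusted p of 0.740, 0.947 and 0.325 and an interval of -0.13 to 1.23 for the last. Without the low sorted libraries the sorted difference was 0.47 (adjusted p = 0.485). The widest difference was -0.80 between sorted CPC and spontaneous cells (interval -1.48 to -0.12, adjusted p = 0.382), and it was -0.07 without the low libraries (adjusted p = 0.939). Pdgfrb lay on the same side of its 12-array mean as Pdgfra on 10 of 12 arrays, and it was low on the same sorted libraries.

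Kit, the stem cell factor receptor, was the only one of the 8 genes called in any comparison: it was 2.22-fold lower in the spontaneous group than at day 0. Its values were 7.46, 8.30 and 7.44 on sorted CPC arrays, 8.96, 7.97 and 8.78 on cardiac arrays and 8.42, 7.46 and 7.28 on spontaneous arrays, against 9.02, 9.02 and 8.55 on iPSC arrays. All sorted and spontaneous arrays lay below all day 0 arrays, and the cardiac arrays overlapped them. Means were 7.73 ± 0.49 in sorted CPC, 8.57 ± 0.53 in cardiac and 7.72 ± 0.61 in spontaneous cells, against 8.87 ± 0.27 in iPSC (SD, n = 3 each). The order from low to high was spontaneous, sorted CPC, cardiac and iPSC, and no neighbours in it differed by the test.

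In the spontaneous group Kit fell by 1.15 ± 0.33 (SE, log2, adjusted p = 0.0461). The call was lost without any 1 of iPSC replicates 1, 2 or 3, of spontaneous replicates 2 or 3, or without cardiac replicate 3, and over all 12 such fits the adjusted p ran from 0.0174 to 0.187 with differences of -1.50 to -0.93. It was also lost without the intensity trend of the variance (adjusted p = 0.0502) and with array medians centred (adjusted p = 0.0535). In the sorted group Kit was lower by nearly as much, -1.14, without passing (adjusted p = 0.0723), and without the low sorted libraries the difference was -1.41 (adjusted p = 0.0799). It passed there with array weights (-1.26) and in 3 of the 12 fits that each left out 1 array. In the cardiac group the difference was -0.30 with an interval of -1.02 to 0.42 (adjusted p = 0.606). The cardiac group lay 0.85 above the spontaneous group (adjusted p = 0.999), so a difference between protocols in Kit was not shown.

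The pluripotency markers fell beside Kit, but not array by array. These markers, of which Zfp42, Fbxo15 and Tcl1 varied most and Dppa3 lay below the array median throughout, averaged 6.77, 8.49 and 7.76 on the sorted arrays, 8.33, 7.50 and 8.11 on the cardiac arrays and 7.61, 7.45 and 8.02 on the spontaneous arrays. Kit was highest within its group on the array with the highest pluripotency mean in the sorted and cardiac groups, and not in the spontaneous group, where replicate 3 had the highest marker mean and the lowest Kit value. The 9 germ cell markers, 0 of which lay below the array median throughout, averaged 6.26 to 6.53 on sorted, 6.32 to 6.81 on cardiac and 6.15 to 6.29 on spontaneous arrays, against 6.89 to 7.22 on iPSC arrays. The 8 blood and mast cell markers averaged 4.90 to 5.25 on all arrays, and 6 of them, Ptprc, Gata1, Spi1, Cpa3, Hbb-bh1 and Ms4a2, lay below the array median on every array. The part of these cells in the Kit levels was not tested.

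Kitl, which encodes the membrane-bound and shed stem cell factor, was lowest in the sorted group. The sorted CPC arrays had 5.02, 5.24 and 5.22, the cardiac arrays 5.51, 6.08 and 5.62 and the spontaneous arrays 5.67, 6.004 and 6.24, against 5.94, 5.43 and 5.90 on iPSC arrays. Every sorted array lay below every array of the other groups, the low sorted libraries included. The differences were -0.59 ± 0.19 from day 0 (adjusted p = 0.0903), -0.57 from the cardiac group (adjusted p = 0.269) and -0.81 from the spontaneous group (adjusted p = 0.291), and none passed. Without the low sorted libraries they were -0.73, -0.71 and -0.95, with adjusted p of 0.135, 0.172 and 0.176. Kitl lay below the array median on all 12 arrays.

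**Figure D3:**
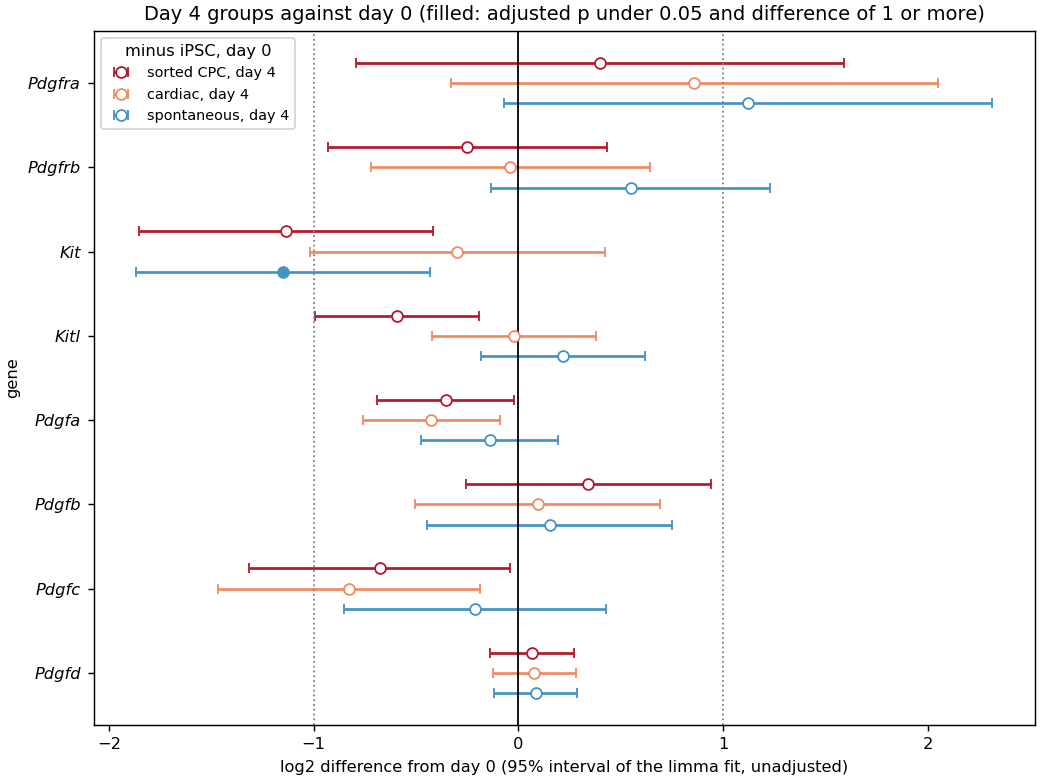
Log2 difference from day 0 (horizontal axis) of each gene in the sorted CPC, cardiac and spontaneous groups, with 95% intervals of the limma model that are not adjusted for the number of genes; filled points were called. The 1 filled point is Kit in the spontaneous group at -1.15, and the dotted lines mark differences of -1 and 1.

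Of the PDGF chains, Pdgfa, a ligand of PDGFRα, lay below all day 0 arrays on 7 of the 9 day 4 arrays. It had 7.90, 8.19 and 8.07 in the sorted CPC group, 7.93, 7.9992 and 8.03 in the cardiac group and 8.01, 8.31 and 8.50 in the spontaneous group, against 8.44, 8.20 and 8.60 at day 0. The sorted and cardiac groups did not overlap day 0 and the spontaneous group did. For the sorted group the margin was narrow, 8.1936 on replicate 2 against 8.1973 on iPSC replicate 2. The differences were small, -0.35 in sorted (adjusted p = 0.232), -0.43 in cardiac (adjusted p = 0.127) and -0.14 in spontaneous cells (adjusted p = 0.640), and the sorted one was -0.51 without the low libraries (adjusted p = 0.182).

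Pdgfc, a chain that is activated by cleavage and binds PDGFRα, had its widest spread at day 0. The sorted CPC arrays had 6.30, 6.68 and 6.23, the cardiac arrays 5.88, 6.34 and 6.54 and the spontaneous arrays 6.48, 6.9998 and 7.14, against 6.49, 6.94 and 7.83 on iPSC arrays. Its SD at day 0, 0.68, was larger than that of 99.7% of genes there, and all day 4 groups overlapped day 0. The mean was 0.83 lower in the cardiac group, 0.68 lower in the sorted group and 0.21 lower in the spontaneous group than at day 0, with adjusted p of 0.120, 0.231 and 0.722. Without iPSC replicate 3 the spontaneous difference turned to 0.16. The 10 fibroblast and feeder markers, led in range by Dcn, Col1a2 and Col1a1 and with Lum, Postn and Fap below the array median throughout, averaged 5.86 to 6.37 on day 4 arrays, against 6.83, 6.40 and 6.73 on iPSC replicates 1, 2 and 3, and their part in the Pdgfc levels was not tested.

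Pdgfb, the chain that recruits pericytes in vessels, varied between single arrays. It had 6.70, 6.54 and 7.85 in the sorted CPC group, 6.83, 6.77 and 6.75 in the cardiac group and 6.43, 7.13 and 6.97 in the spontaneous group, against 6.80, 6.67 and 6.60 at day 0. The value of 7.85 on the library labelled sorted CPC replicate 3 was the highest of the 12, and without that library the sorted difference of 0.34 (adjusted p = 0.567) turned to -0.07. The same library had the highest mean of the 8 mural cell markers, 7.69, against 6.78 and 6.68 on the other sorted arrays, 6.17 to 6.95 on cardiac, 6.73 to 7.34 on spontaneous and 6.15 to 6.35 on iPSC arrays. Tagln (10.97) and Cnn1 (8.79) were each at their highest of the 12 arrays there. Rgs5, a pericyte marker, was 5.14 there, below its 6.51 and 5.25 on the other sorted arrays and its 6.37 to 8.37 on spontaneous arrays. Myh11, Kcnj8 and Abcc9 lay below the array median throughout. Pdgfrb, itself a mural receptor, was at its lowest, 6.23, on that library. The 10 endothelial and haemogenic markers, with Cdh5 and Tie1 below the array median throughout, averaged 6.52 there and 6.41 and 6.26 on the other sorted arrays. They averaged 6.55 to 6.83 on cardiac, 6.46 to 6.85 on spontaneous and 6.85 to 6.95 on iPSC arrays. Single markers went opposite ways. Day 0 had the highest group means of Pecam1 (8.35, against 5.78 to 6.37 at day 4) and Cd34 (8.03, against 5.96 to 6.22). Lmo2 and Etv2 were higher in cardiac cells than at day 0, by 1.24 and 1.00, without being called. The part of mural and endothelial cells in the Pdgfb value was not tested.

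Pdgfd, the other chain that needs cleavage, lay between 4.17 and 4.47 on all arrays and below the array median on each of the 12. Its group means were 4.31, 4.32 and 4.33 in the sorted CPC, cardiac and spontaneous groups, against 4.24 at day 0. The arrays give no measured background, so a low level of Pdgfd cannot be told from none.

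**Figure D4:**
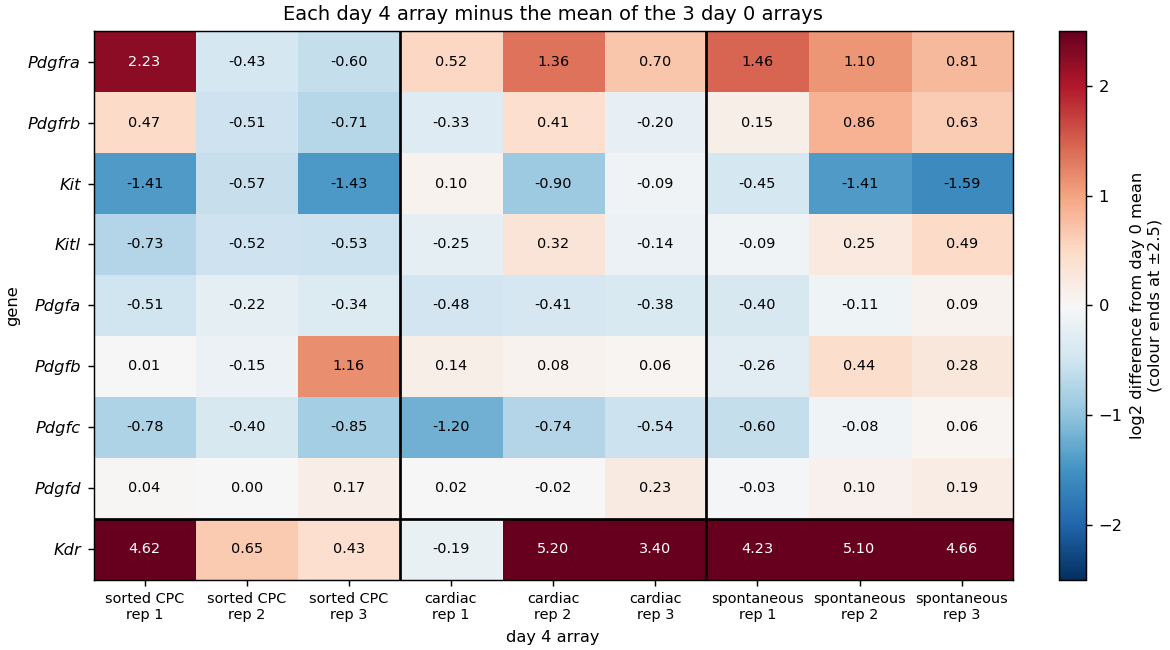
Log2 difference of each day 4 array (columns) from the mean of the 3 iPSC arrays for the 8 genes and, below the line, Kdr (rows); red is higher and blue lower than day 0, with the colour ending at ±2.5. The libraries labelled sorted CPC replicates 2 and 3 are lower than day 0 in Pdgfra (-0.43 and -0.60) while replicate 1 is higher by 2.23, and Kit is lower on all sorted and spontaneous arrays.

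Counted over the 8 genes, the sorted CPC group lay wholly below day 0 for Pdgfa, Kit and Kitl and wholly above it for none, while 21.5% of all genes did not overlap in that comparison. In the cardiac group Pdgfra lay wholly above and Pdgfa wholly below day 0, where 29% of all genes did not overlap, and in the spontaneous group Pdgfra lay wholly above and Kit wholly below, where 41% did not. The counts of 3, 2 and 2 of 8 genes are too small to be told from the shares over all genes. Pdgfa lay apart in the sorted group by a narrow margin, 8.1936 on sorted CPC replicate 2 against 8.1973 on iPSC replicate 2. The median difference from day 0 of the 8 genes was -0.30, -0.03 and 0.12 in the sorted, cardiac and spontaneous groups, beside 0.03, -0.05 and -0.03 over all genes. The 3 comparisons share the day 0 arrays.

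Between day 4 groups none of the 8 genes was called. By the same rule 0% of all genes were called in cardiac minus spontaneous, 0% in sorted CPC minus cardiac and 0.00502% in sorted CPC minus spontaneous. At an unadjusted p under 0.05 there were 1 of the 8 genes (Kit) in the first comparison, 2 (Kit and Kitl) in the second and 2 (Pdgfrb and Kitl) in the third, beside 3.73%, 15.7% and 11.6% of all genes. No gene of the 8 lay apart in cardiac against spontaneous, where 8.99% of all genes did. Kitl alone lay apart in sorted CPC against cardiac, where 13.1% of all genes did, and in sorted CPC against spontaneous, where 19.6% did. The limma F test over the 4 groups passed for 5.86% of all genes and for none of the 8, whose lowest adjusted p were 0.0649 for Kitl and 0.0820 for Kit; at an unadjusted p under 0.05 it held for 3 of the 8 (Kitl, Kit and Pdgfc), beside 23.1% of all genes.

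Among the other genes of these pathways, 48 of the 49 listed were measured, and all but 4 were called in no comparison with day 0. None was called higher and 1 lower in sorted CPC, none higher and 2 lower in cardiac, and 2 higher and 1 lower in spontaneous cells. By the same rule 2.11%, 2.2% and 3.57% of all genes were called, and so few pathway calls cannot be told from these shares. The median differences of the 48 genes were -0.02, 0.17 and 0.08 in these groups, beside the medians over all genes given above. Pcsk6, a proprotein convertase, was lower in each day 4 group. It averaged 7.42 ± 0.39 in sorted, 7.34 ± 0.37 in cardiac and 7.29 ± 0.11 in spontaneous cells, against 8.65 ± 0.16 at day 0 (SD, n = 3 each). The falls were -1.23, -1.31 and -1.36, with adjusted p of 0.00499, 0.00338 and 0.00220, and none of these calls was lost when any 1 array was left out.

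Nrp1, a co-receptor that binds VEGF and PDGF chains, was higher in spontaneous cells, by 4.01 (adjusted p = 0.00995), with 8.67, 9.94 and 9.76 there, against 5.54, 4.90 and 5.89 at day 0. It had 8.24, 6.13 and 5.46 on sorted CPC and 5.98, 9.82 and 8.08 on cardiac arrays, so the arrays with low Nrp1 at day 4 were those with low Kdr. Jak2, a cytoplasmic tyrosine kinase, was higher in spontaneous cells by 1.02 (adjusted p = 0.0233), and the call was lost in 4 of 12 fits without 1 array, namely iPSC replicates 2 or 3 or spontaneous replicates 2 or 3, and with quantile normalization repeated, where the difference of 0.96 was under the minimum. Plau, the protease urokinase, was lower in cardiac cells by 1.14 on the log2 scale and averaged 5.53 ± 0.20 there, against 6.68 ± 0.46 at day 0 (SD, n = 3 each, adjusted p = 0.0213). That call was lost without iPSC replicate 1 or cardiac replicate 3.

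The remaining pathway genes were not called in any comparison with day 0. The brightest uncalled gene of each group of the pathway is given by its range over the 12 arrays. Csf1, the ligand of the related CSF1 receptor, ranged from 5.61 to 7.38, both ends within the sorted group. Adam17, a shedding protease, ranged from 8.62 to 9.21, and Sparc, a matrix protein that binds PDGF chains, from 10.10 to 11.99. Crk, an adaptor of receptor signalling, ranged from 9.70 to 10.17, and Acp1, a phosphatase that acts on receptor kinases, from 9.88 to 10.36.

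Patterns over the 12 arrays were compared with 17051 other genes for Pdgfra and Kit, the members whose group means spanned at least 1. Likeness was the root mean square difference between log2 values, each centred on its gene's mean over the arrays. Meis2 was most like Pdgfra (0.279), before Snai1 (0.327) and Efna3 (0.357), beside a spread of Pdgfra about its own mean of 0.815. Meis2 had 8.73, 6.72 and 6.08 in the sorted CPC, 6.59, 8.09 and 6.97 in the cardiac and 7.61, 7.49 and 7.43 in the spontaneous group, against 6.44, 6.57 and 6.38 at day 0. All 3 genes were highest on sorted CPC replicate 1. For Kit, Hdac6 was closest (0.248), then Mertk (0.284) and Atf7ip (0.294), beside a spread of 0.648. Hdac6 had 8.85, 9.81 and 8.58 in sorted CPC, 10.08, 9.32 and 9.71 in cardiac and 9.34, 8.83 and 8.81 in spontaneous cells, against 9.97, 9.82 and 9.98 in iPSC. The measure compares many genes on few arrays and is a description.

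**Figure D5:**
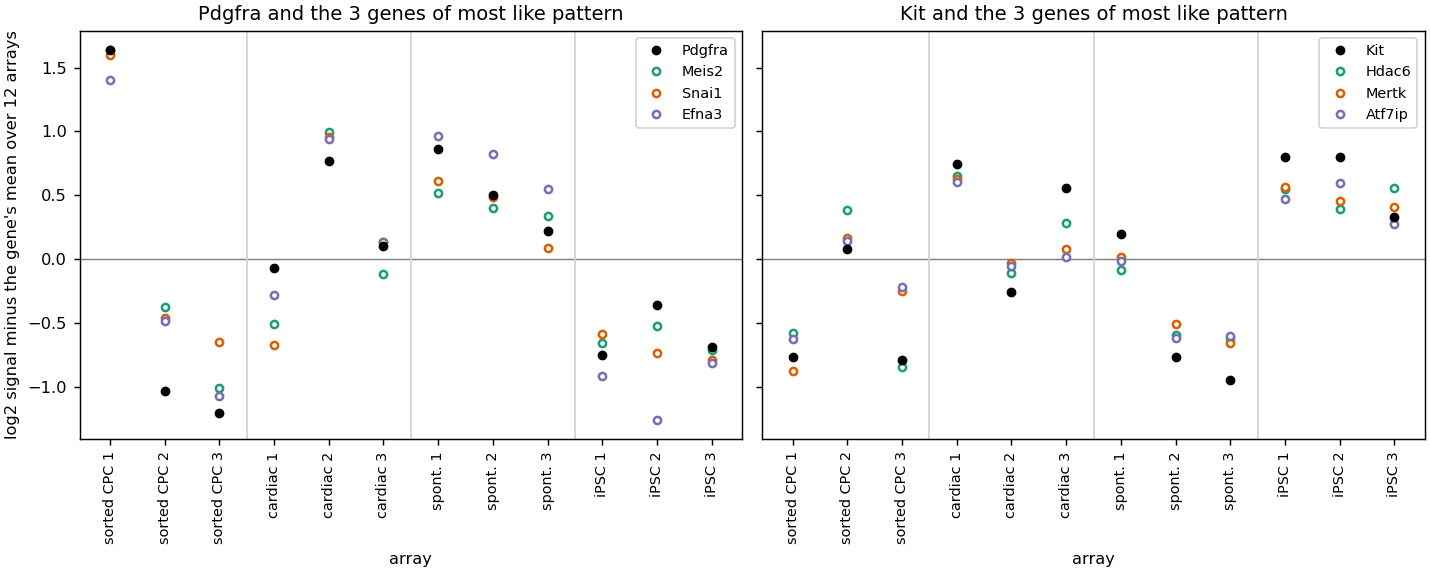
Log2 signal minus each gene's mean over the 12 arrays (vertical axis) for Pdgfra (left) and Kit (right) in black and the 3 genes of most like pattern in colour, array by array (horizontal axis, sorted CPC, cardiac, spontaneous and iPSC). Meis2, Snai1 and Efna3 share the high value of Pdgfra on sorted CPC replicate 1, and Hdac6, Mertk and Atf7ip share the low values of Kit on spontaneous replicates 2 and 3.

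Kit lies between Pdgfra and Kdr on the chromosome but did not share their pattern. Kit was on the same side of its 12-array mean as Pdgfra on 3 of 12 arrays, and as Kdr on 3 of 12. Of the 14 genes of this stretch in the table, 5 were measured, and the flanking coding genes, Gsx2 beside Pdgfra and Srd5a3 beside Kdr, were added after the data were seen. Gsx2 stayed between 5.25 and 5.82 on all arrays. Srd5a3 had 8.005, 8.35 and 8.34 in spontaneous cells, against 7.13, 7.36 and 7.60 at day 0, a difference of 0.87 that stayed under the minimum (adjusted p = 0.0113).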

How the data were processed

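Total RNA of 12 samples was measured on 1-colour Affymetrix arrays. The deposited table holds log2 values for 35557 probe sets, to which the authors had reduced the scans by RMA; the submitters' processing notes name Affymetrix Expression Console 1.3.1. The log base follows from RMA and the value range. For the probe design, a genome build is not given in sources used here. Precision is limited by the number of arrays.

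The platform annotation gave 21789 probe sets a single symbol, 1621 several, and did not list 12147. The probe set with the highest mean was kept for each of 19938 genes. All 12 arrays entered a limma 3.58.1 model (R 4.3.3) with a mean for each group, 6 two-sided comparisons, a prior variance that follows intensity (8 residual and 5.01 prior degrees of freedom) and Benjamini-Hochberg adjustment. The script was tested on simulated data. The alternatives were array weights, no trend, the replicate block, other scalings, dim genes left out, probe sets averaged, no minimum difference, fits of 6 arrays and arrays left out.

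The genes, pathway and marker lists and alternatives were chosen with earlier results of these data known. Apart from the 8 genes and Kdr, genes were named by rule: up to 4 called genes and the brightest uncalled gene of each pathway list, the 3 most variable markers of each list, the neighbours on the chromosome and the 3 genes of most like pattern. An abbreviation in the labels of the cardiac group, and the prefix in the name of the iPSC, were not interpreted. The labels repeat replicate numbers across groups; these are not stated to pair samples.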

Additional observations from a re-analysis of the deposited data

How the results depend on the processing

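Differences are log2, each with the first-named group minus the second. Of 1229 single-gene values under the alternatives, 1140 kept their direction and side of the threshold, 61 changed sign, 13 passed and 15 no longer passed. None of the values that changed sign was called. The number of the 8 genes called in spontaneous minus iPSC (1 as reported) was 0 without the variance trend and 0 with array medians centred, 2 with array weights, 2 in a fit of the 6 arrays, 2 without the low sorted libraries and 2 without the 3 day 4 arrays low in Kdr (these libraries and cardiac replicate 1), and it ran from 0 to 2 when any 1 array was left out. In sorted CPC minus iPSC (0 as reported) it was 1 with array weights (Kit) and 0 to 1 without any 1 array. The number in sorted CPC minus iPSC also rose without the low libraries and without the 3 arrays, where the difference of Kit was -1.41. In cardiac minus iPSC (0 as reported) it rose without the 3 arrays. Fits without the low libraries or the 3 arrays keep 1 sorted array, and the arrays left out were picked on Pdgfra or Kdr. All counts from these fits are therefore a description. Without the 3 arrays, Pdgfra lay 2.23 above day 0 in the sorted and 1.03 above it in the cardiac group. The F test passed for 3 genes with array weights, 1 without the low libraries, 2 without the 3 arrays and 0 to 2 without any 1 array. Pathway genes called numbered 2 with array weights, 5 without the low libraries, 7 without the 3 arrays, 3 with no minimum difference and 1 to 3 without any 1 array in sorted CPC minus iPSC (1 as reported). In cardiac minus iPSC (2 as reported) they numbered 6 with no minimum, 1 with dim genes left out and 1 to 3 without any 1 array. In spontaneous minus iPSC (3 as reported) they numbered 11 with no minimum and 2 to 5 without any 1 array. The share of all genes called under each alternative was not worked out, so none of these counts can be set beside one. Where fewer arrays or genes entered, that is the construction of the alternative; the cause of the other changes was not tested.

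Signs turned as follows. With array weights, sorted CPC minus cardiac became 0.32 for Pdgfra and 0.18 for Pdgfrb, sorted CPC minus iPSC 0.0046 for Pdgfrb, sorted CPC minus spontaneous -0.048 for Pdgfb and cardiac minus spontaneous 0.0225 for Pdgfd. The last was 1e-04 with medians centred, 0.0304 with quantile normalization repeated and 0.0216 without the 3 arrays, and Kitl in cardiac minus iPSC was 5e-04, 0.0797 and 0.0896 under the same alternatives. Without the low sorted libraries, sorted CPC minus cardiac became 1.37 for Pdgfra, 0.51 for Pdgfrb, -0.0818 for Pdgfa and -0.0825 for Pdgfb; sorted CPC minus spontaneous became 1.11 for Pdgfra, -0.14 for Pdgfb and -0.26 for Kit; and sorted CPC minus iPSC became 0.47 for Pdgfrb. Without the 3 arrays, sorted CPC minus cardiac was 1.21 for Pdgfra, 0.37 for Pdgfrb, -0.11 for Pdgfa, -0.0589 for Pdgfb and -0.14 for Pdgfc, and cardiac minus iPSC was 0.11 for Pdgfrb; the other values of that alternative that turned were those without the low libraries, namely 1.11, -0.14, -0.26 and 0.47.

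Without any 1 array, the values that turned had these ranges. Sorted CPC minus iPSC ran from -0.52 to 0.90 for Pdgfra and -0.0673 to 0.59 for Pdgfb. Cardiac minus iPSC ran from -0.265 to 0.17 for Pdgfrb, -0.49 to 0.0028 for Kit and -0.19 to 0.0896 for Kitl. Spontaneous minus iPSC ran from -0.51 to 0.16 for Pdgfc. Cardiac minus spontaneous ran from -0.27 to 0.0849 for Pdgfb and -0.0848 to 0.042 for Pdgfd. Sorted CPC minus cardiac ran from -1.38 to 0.0404 for Pdgfra, -0.57 to 0.0205 for Pdgfrb, -0.16 to 0.49 for Pdgfb, -0.0372 to 0.29 for Pdgfc and -0.061 to 0.0657 for Pdgfd. Sorted CPC minus spontaneous ran from -0.22 to 0.43 for Pdgfb, -0.27 to 0.36 for Kit and -0.0791 to 0.0314 for Pdgfd.

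With the replicate block, the counts of the 8 genes called were 0, 0 and 1 in sorted CPC, cardiac and spontaneous minus iPSC, and those of pathway genes were 1, 2 and 3, as without it. Same-numbered arrays of different groups had correlations of deviations from -0.382 to 0.307 (median 0.051), over 0.1 in 6 of 18 pairs. For arrays of different numbers they ran from -0.465 to 0.300 (median 0.002), over 0.1 in 8 of 36 pairs. On average over the other groups, 7 of 12 arrays correlated best with their own number. These values do not settle whether the numbers pair the arrays, and the main model did not pair them.

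Each group has 3 arrays, and no background level was measured. Pdgfd and Kitl lay below the array median on all 12 arrays and Pdgfc on 7, so small differences in these genes have the least signal behind them.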
